A study of Homo sapiens with 2 samples.

Results

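The genes described here make, move and interconvert amino acids, or carry the folate-bound carbon units that come from serine. They are a list of 30 genes put together by function, with earlier results of these data known, so the list is not independent of them. Of the 30, 29 had at least 1 probe set (a group of array probes summarised as 1 value) that is paired with that gene alone, out of 19775 such genes on the array. In all, 23 of the 29 were bright enough to be measured, 6 were dim and GPT2 had no single-gene probe set.

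The comparison is between 2 cultures of HCT116, a human colorectal cancer line, with 1 array for each. One culture is labelled HCT116-CPEB4 and carries the genotype CPEB4 over-expressed, made with a lentiviral system. The other is labelled HCT116-GFP, with the genotype wildtype, and the labels do not say whether it received a vector. Both were grown in RPMI-1640 with 10% FCS and penicillin-streptomycin at 37 °C and 5% CO2, and neither the number of clones nor the time after transduction is given. The CPEB4 protein binds short elements in messenger RNAs and regulates their poly(A) tails and translation. With 1 array per group there is no replicate error and no test, so every difference below describes these 2 arrays, and its sign is that of HCT116-CPEB4 minus HCT116-GFP on the log2 scale.

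Serine is built from a glycolytic intermediate by a short enzyme chain, and its side-chain carbon enters the folate cycle, which supplies nucleotide synthesis and methylation. Tumour cells draw heavily on both routes and on transporters that exchange or concentrate amino acids across the plasma membrane. Many of these genes are induced when amino acids run short or the endoplasmic reticulum is stressed, through the transcription factor ATF4, which binds composite elements in their promoters.

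The CPEB4 transcript itself was no brighter in the sample labelled HCT116-CPEB4. Its best-lit probe set gave 628 there, against 731 on the HCT116-GFP array, a difference of −0.22. The other kept probe sets differed by −0.44 and −0.08, and a dim probe set read 21.0 against 60.1. Where these probe sets lie in the transcript is not given here, and one outside the introduced sequence would check nothing, so the direction of every difference rests on the labels. Both arrays showed the epithelial markers of the line, with EPCAM at 20717 on the CPEB4-labelled array, against 20994 on the HCT116-GFP array, and KRT18 at 28606 against 27353. CDX1 and VIL1 reached the brightness filter on the CPEB4-labelled array only, and CDH17 and GPA33 on neither. Of 8 fibroblast markers 2 reached it on the CPEB4-labelled array and 1 on the HCT116-GFP array, and their summed intensity was 1590 against 1182, most of it COL1A1 (1292 against 949). Of 7 blood and immune markers with a probe set 3 reached it on the CPEB4-labelled array and 2 on the HCT116-GFP array (sums 476 against 502), and PTPRC on neither. Of 6 endothelial markers 1 reached it on the CPEB4-labelled array and 3 on the HCT116-GFP array (sums 195 against 359), and CDH5 on neither. Of 5 kidney and HEK293 markers 4 reached it on the CPEB4-labelled array and 3 on the HCT116-GFP array (sums 1207 against 1048). The part of other cells in the differences below was not tested. The ratio of 3′ to 5′ signal for ACTB, which grows as RNA is degraded, was 10.3 on the CPEB4-labelled array, against 8.23 on the HCT116-GFP array, and for GAPDH 1.04 against 0.989. The part of RNA quality in the differences below was not tested.

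ATF4 and its partners bind an element whose core reads TGATGNAA (N is any base), and the promoters of the list were searched for it because it is the sequence feature its members are best known to share. RefSeq windows of assembly GRCh38.p14, from 250 bases before to 50 bases after a gene's start, were found for 25 of the 30 genes and searched on both strands, where the opposite strand reads TTNCATCA. The letters occurred in 9 of the 25 genes, or 36%, against 4.46% of all 27305 genes in the promoter table. The 9 include MTHFD1L and BCAT1, which were too dim to be measured. Among measured genes with a window, 7 members had a match and 13 did not, where 2.98% of all 11041 such genes had one. By window the figures were 11 of 44 for the members, or 25%, and 3.62% for all windows. The matches follow on the strand of the gene, 5′ to 3′, with the 8 matched letters in capitals.
ASNS, asparagine synthetase, 68 bases before the start, chr7:97872443-97872502, minus strand: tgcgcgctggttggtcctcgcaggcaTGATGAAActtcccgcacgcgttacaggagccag
GOT1, 198 bases before the start, chr10:99430804-99430833, minus strand: aattgcattggTTGCATCAttctcggcagc
MTHFD1L, 129 bases before the start, chr6:150866346-150866375, plus strand: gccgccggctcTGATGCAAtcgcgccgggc
SLC1A5, 97 bases before the start, chr19:46784893-46784922, minus strand: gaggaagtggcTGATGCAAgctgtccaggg
BCAT1, 48 bases before the start, chr12:24949131-24949160, minus strand: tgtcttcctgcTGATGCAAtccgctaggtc
SLC1A4, 7 bases before the start, chr2:64989381-64989410, plus strand: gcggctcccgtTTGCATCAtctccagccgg
SLC38A1, 4 bases before the start, chr12:46266502-46266531, minus strand: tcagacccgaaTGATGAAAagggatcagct
SLC7A1, from base 8 after the start, chr13:29595663-29595692, minus strand: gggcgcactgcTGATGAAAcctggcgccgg
SLC3A2, from base 38 after the start, chr11:62881719-62881748, plus strand: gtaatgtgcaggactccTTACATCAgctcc
The MTHFD1L site lies in 3 overlapping windows and is printed once. Several genes have more than 1 annotated start, and for SLC1A4, ASNS, SLC3A2, BCAT1, SLC38A1 and SLC1A5 only 1 of their windows holds a match. A match is a description of these letters and not a binding site shown by these data.

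Across the 23 measured genes, the median difference was −0.19, or 1.14-fold lower on the CPEB4-labelled array, against 0.00 over all 13704 measured genes. Of the 23, 18 lay below 0 and 5 above, a share of 78.3% below 0, where 49.9% of all measured genes lay below 0. In RNA from a whole culture, less RNA per cell and fewer cells that express a gene cannot be told apart. No measured member differed by 2-fold or by 1.5-fold in either direction. Of all measured genes, 8.3% were lower by 1.5-fold or more and 8.22% higher, and at 2-fold the shares were 3.85% and 3.55%. At 1.2-fold, a smaller size chosen after the values were seen, 7 members were lower (30.4%) and 0 higher, where 22% of all measured genes were lower and 21.7% higher.

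Most members were bright, and bright genes scatter less on arrays. Among genes whose brighter array reached 377 intensity units, the 75th percentile of all values, 16 of 20 members lay below 0, where 49.8% of such genes did. In that class 6 members (30%) were lower by 1.2-fold or more, where 15.9% of such genes were. The members lower by 1.2-fold were CTH, ASS1, SLC1A4, ALDH18A1, PYCR1, SHMT2 and, just past that size, SLC7A1, and those above 0 were PSPH, GOT2, SLC38A1, SLC7A6 and SLC43A1.

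**Figure D1:**
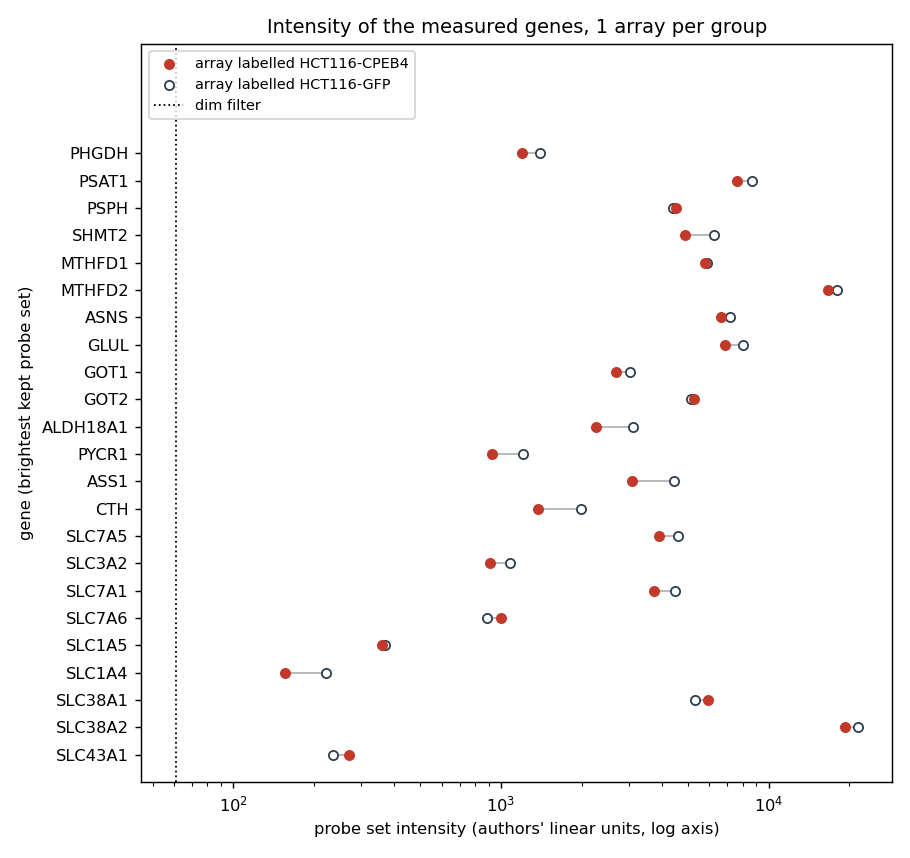
Intensity of each of the 23 measured genes at its brightest kept probe set, in the authors' linear units on a log axis, with filled points for the array labelled HCT116-CPEB4 and open points for the array labelled HCT116-GFP. The filled point lies left of the open one in 18 genes, by at most 1.45-fold, and all points lie right of the dotted line at 60.8, the brightness filter.

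The only error that these arrays show is the disagreement between probe sets that read the same gene, which holds no spread between cultures. Over 2671 genes with at least 2 probe sets above 377 on both arrays, the differences of the 2 brightest were 0.17 apart at the median and 0.46 apart at the 90th percentile. Over all 6520 genes with at least 2 kept probe sets, the gap was 0.27 at the median and 1.01 at the 90th percentile. Over the 13 members with at least 2 kept probe sets, it was 0.15 and 0.37.

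Serine synthesis enzymes differed little. PHGDH, which commits 3-phosphoglycerate to serine, read 1203 on the CPEB4-labelled array and 1394 on the HCT116-GFP array (−0.21). PSAT1, the aminotransferase of the next step, read 7605 on the CPEB4-labelled array and 8651 on the HCT116-GFP array (−0.19), and its other probe set differed by −0.21. PSPH, the phosphatase that releases serine, read 4511 against 4389 (0.04), with −0.09 at another bright probe set. The first steps were thus lower by 1.16-fold and 1.14-fold, and the direction of PSPH changed with the probe set.

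Of the 6 folate cycle enzymes, 3 were measured and all 3 lay below 0, by unequal amounts. SHMT2, which transfers the serine carbon to folate in mitochondria, read 4890 on the CPEB4-labelled array and 6274 on the HCT116-GFP array (−0.36). Its other probe sets differed by −0.19 and −0.12, so all 3 lay below 0. MTHFD2, the next mitochondrial enzyme and one that is abundant in tumours, read 16604 against 18047 (−0.12), and its second probe set differed by −0.23. MTHFD2 is among the brightest genes of the arrays, where values ran lower in general: 196 of 270 genes with a mean log2 intensity of 14 or more lay below 0, with a median of −0.09. After a loess correction for brightness MTHFD2 differed by −0.07. MTHFD1, a cytosolic enzyme of the cycle, read 5779 against 5874 (−0.02), and a probe set that was dim on the HCT116-GFP array read 89.3 against 53.1 (0.75).

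The other folate enzymes of the list were dim. SHMT1, the cytosolic form of SHMT2, read 45.6 and 20.5 on the CPEB4-labelled array, against 46.0 and 46.8 on the HCT116-GFP array. MTHFD1L, which releases formate from mitochondria, read 56.5 and 23.4, against 40.4 and 6.84 on the HCT116-GFP array. ALDH1L2, a mitochondrial enzyme that oxidises formyl folate, reached 46.2 at most on the CPEB4-labelled array, against 26.1 on the HCT116-GFP array. All of these lie under the filter, so their differences have no settled direction. Further probe sets of SHMT1 and MTHFD1L are paired with a second gene and were not used here.

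**Figure D2:**
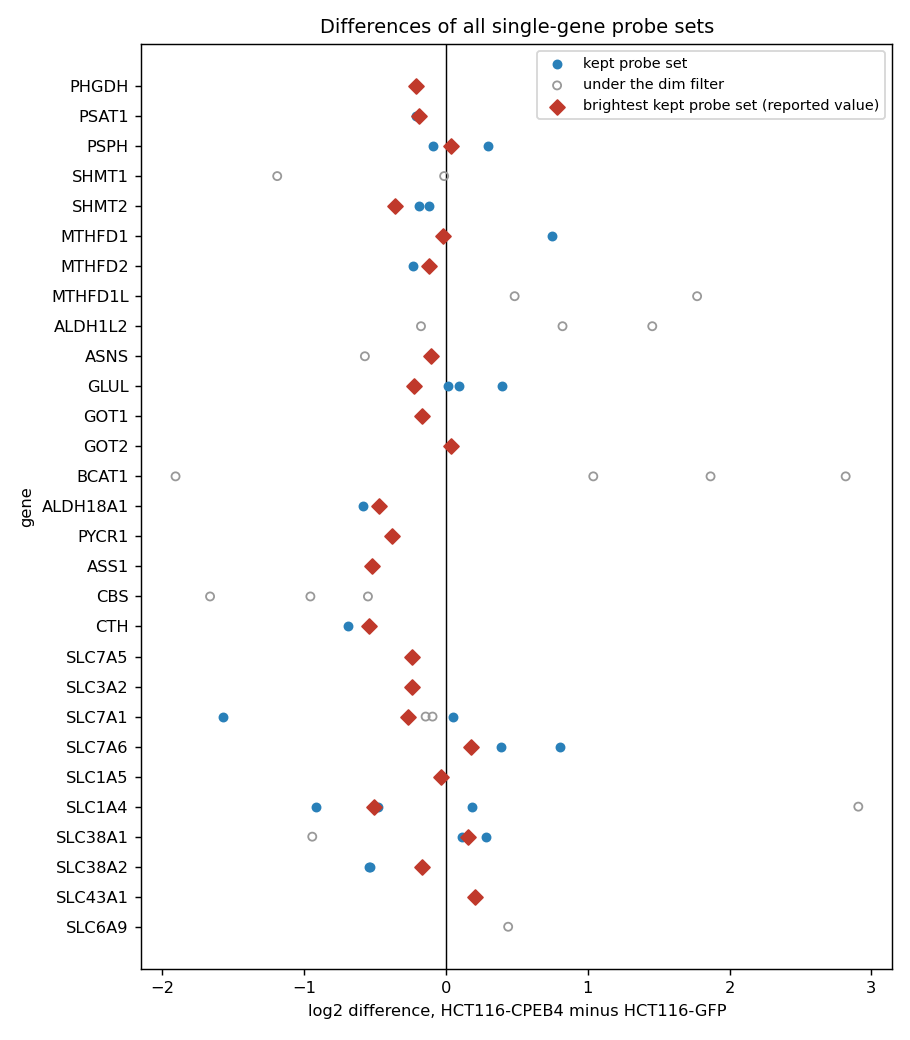
Log2 difference, HCT116-CPEB4 minus HCT116-GFP, of all 66 single-gene probe sets of the 29 genes. Red diamonds are the value of each measured gene, blue points are its other kept probe sets and open grey points lie under the brightness filter, where differences of the same gene run from −1.91 to 2.82 (BCAT1).

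Asparagine synthetase and the transaminases differed by small amounts. ASNS, which makes asparagine and is a standard readout of amino acid shortage, read 6649 on the CPEB4-labelled array and 7163 on the HCT116-GFP array (−0.11). That value stood at percentile 37.2 of all measured genes. GOT1, the cytosolic aspartate aminotransferase, read 2694 against 3025 (−0.17), and GOT2, its mitochondrial partner, read 5272 against 5134 (0.04). GLUL, which makes glutamine from glutamate and ammonia, read 6900 against 8053 (−0.22) at its brightest probe set. The other GLUL probe sets differed by 0.02, 0.09 and 0.39, so its direction is not settled. BCAT1, which transaminates branched-chain amino acids, was under the filter at all 4 probe sets, with 34.3 as its highest value on the CPEB4-labelled array and 24.7 on the HCT116-GFP array.

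Among bright members, the lowest differences were in proline, arginine and cysteine synthesis. CTH, which cleaves cystathionine to yield cysteine, read 1373 on the CPEB4-labelled array and 1996 on the HCT116-GFP array, a difference of −0.54 or 1.45-fold. Its second probe set read 370 against 597 (−0.69), and the first stood at percentile 9.32 of all measured genes and 2.91 of the bright ones. CBS, which makes cystathionine upstream of CTH, was dim at all 3 probe sets, the highest values being 26.3 on the CPEB4-labelled array and 51.0 on the HCT116-GFP array. ASS1, which condenses citrulline with aspartate on the way to arginine, read 3088 against 4420 (−0.52, or 1.43-fold) at its only single-gene probe set. That difference stood at percentile 9.84 of all measured genes and 3.35 of the bright ones.

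Both proline enzymes of the list lay below 0. ALDH18A1, which reduces glutamate to the proline and ornithine precursor, read 2256 on the CPEB4-labelled array and 3125 on the HCT116-GFP array (−0.47, or 1.39-fold). Its other probe set read 680 against 1021 (−0.59), lower than the reported value. PYCR1, the mitochondrial reductase of the last step, read 928 against 1209 (−0.38, or 1.30-fold), at percentile 14.8 of all measured genes and 7.97 of the bright ones. ALDH18A1, PYCR1, ASS1, CTH, SHMT2 and SLC7A1 are the bright members lower by 1.2-fold or more. Outside the list, PYCR3, another proline reductase, differed by 0.35, and ASL, the enzyme after ASS1, by −0.07. Both are named after their values were seen.

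Of the 10 transporters, 9 were measured, 6 below 0 and 3 above. SLC7A5 and SLC3A2 form the heterodimer that exchanges glutamine for leucine and other large neutral amino acids, and the values of both were lower by nearly the same amount. SLC7A5, the transporting chain, read 3884 on the CPEB4-labelled array and 4589 on the HCT116-GFP array (−0.24). SLC3A2, the glycoprotein that carries it to the membrane, read 913 against 1077 (−0.24). SLC7A6, another partner of SLC3A2, lay in the other direction at 1001 against 885 (0.18), with its dimmer probe sets at 0.39 and 0.81.

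Transporters of small neutral amino acids split. SLC38A2, a sodium-coupled carrier that is induced by amino acid shortage, read 19292 on the CPEB4-labelled array and 21634 on the HCT116-GFP array (−0.17). Its other probe sets read 12026 against 17526 (−0.54) and 11096 against 16090 (−0.54), so all lay below 0 but by unequal amounts. SLC38A2 is, with MTHFD2, the other member with a mean log2 intensity of 14 or more, and it differed by −0.10 after quantile normalization and by −0.11 after loess. SLC38A1, its relative, read 5934 against 5314 (0.16), and its 3 kept probe sets lay between 0.11 and 0.29. SLC1A5, a glutamine and neutral amino acid exchanger, was nearly level at 359 against 368 (−0.04). SLC1A4, its close relative, read 156 against 222 (−0.51), although its 4 kept probe sets ran from −0.92 to 0.18 and all were modest in brightness.

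The remaining transporters also went both ways. SLC7A1, the carrier of arginine and lysine, read 3727 on the CPEB4-labelled array and 4483 on the HCT116-GFP array (−0.27). A second probe set of SLC7A1 was level at 171 against 164 (0.05), and another read 24.8 against 73.5, with the first of these values under the filter. SLC43A1, a sodium-independent carrier of large neutral amino acids, read 271 against 235 (0.21) at its only probe set, the highest difference of any measured member. SLC6A9, a glycine transporter, was under the filter at 26.7 against 19.7.

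**Figure D3:**
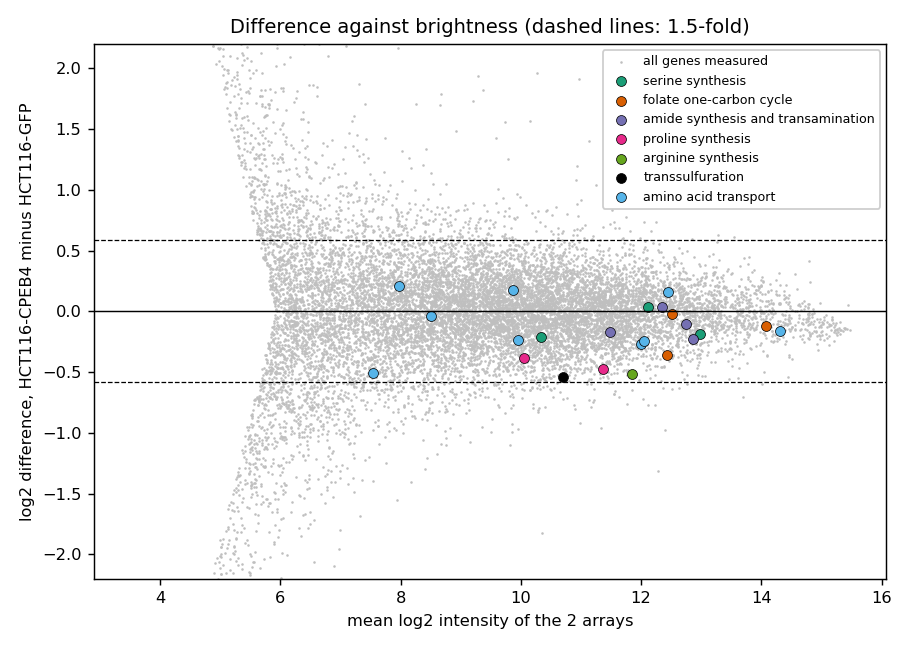
Log2 difference, HCT116-CPEB4 minus HCT116-GFP, against the mean log2 intensity of the 2 arrays for all 13704 measured genes (grey) and the 23 members, coloured by role. All members lie between the dashed lines at 1.5-fold, 18 of them below 0, and 306 grey genes lie beyond the plotted range of 2.2 in either direction.

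Where a gene had several kept probe sets, these did not always share a sign. Of 13 such members, 6 had all kept probe sets below 0 (PSAT1, SHMT2, MTHFD2, ALDH18A1, CTH and SLC38A2), 2 had all above (SLC7A6 and SLC38A1) and 5 had both signs. Over all 46 kept probe sets of the members, 30 lay below 0, or 65.2%, where 49.6% of all 25010 kept single-gene probe sets did. That count includes the 23 reported probe sets, of which 18 lay below 0, so most of the lean comes from those. Probe sets whose names end in x_at or s_at can read related transcripts. Without them 14 members were left, with 9 below 0 and a median of −0.07, where 50.4% of the genes so measured lay below 0. The same 14 genes had a median of −0.14 at their brightest probe sets, and the 9 genes lost had a median of −0.24.

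Measured members with and without TGATGNAA in their promoter windows had overlapping differences. The median was −0.17 over 7 with a match and −0.19 over 13 without one, with ranges from −0.51 to 0.16 and from −0.54 to 0.21. SHMT2, PYCR1 and PSPH were measured but had no window, so they are in neither group. CTH (−0.54), ASS1 (−0.52) and ALDH18A1 (−0.47), which had the lowest differences among bright members, had no match in their windows. The 7 with a match were SLC1A4 (−0.51), SLC7A1 (−0.27), SLC3A2 (−0.24), GOT1 (−0.17), ASNS (−0.11), SLC1A5 (−0.04) and SLC38A1 (0.16). No match says only that these letters are not in this window.

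Other genes of amino acid and folate metabolism had medians near 0. Over 3 further lists with 83 genes, 63 were measured, 28 below 0 and 35 above, with a median of 0.04. Of the 63, 2 were lower by 1.5-fold or more and 6 higher, where 8.3% and 8.22% of all measured genes were. Among other amino acid enzymes the median was 0.09 over 20 genes, with NAGS (−0.36) and GLUD1 (−0.35) lowest and PRODH (0.71) and AASS (0.85) highest among those above the filter on both arrays. GLUD1, which releases ammonia from glutamate, read 4828 on the CPEB4-labelled array and 6158 on the HCT116-GFP array. PRODH, which degrades proline, read 128 against 78.3, close to the filter on the HCT116-GFP array. The other kept probe set of AASS differed by −0.20.

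Among 19 other measured transporters the median was 0.03. SLC7A11, which imports cystine in exchange for glutamate, read 710 on the CPEB4-labelled array and 1390 on the HCT116-GFP array (−0.97), with its kept probe sets between −1.05 and −0.03. The taurine carrier SLC6A6 differed by −0.47, and the lysosomal carrier SLC36A1 by 0.80. SLC43A2, a relative of SLC43A1, differed by 0.67, with −2.55 at its other probe set. The 1 gene of these lists past 2-fold, SLC7A7 (−1.27), was dim on the CPEB4-labelled array and is named after its value was seen. Other folate and methionine cycle genes had a median of 0.04 over 24 genes, with ALDH1L1 (−0.45) and AHCYL1 (−0.35) lowest and FTCD (0.34) and the folate carrier SLC19A1 (0.56) highest among those above the filter on both arrays. The kept probe sets of FTCD ran down to −1.85.

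The transcription factors ATF4 and DDIT3 were both lower on the CPEB4-labelled array. ATF4 read 14274 on the CPEB4-labelled array and 20156 on the HCT116-GFP array (−0.50), at percentile 10.4 of all measured genes, and its brightness also lies in the range where values ran lower in general. DDIT3, the stress-induced factor CHOP, read 694 against 2456 (−1.82), and the mTORC1 inhibitor DDIT4 read 3163 against 7878 (−1.32). Within 25 measured genes of the ATF4 pathway context list, 18 lay below 0, where 49.9% of all measured genes did. Their median was −0.16. That list also holds genes upstream of ATF4, such as the EIF2AK kinases, and other stress factors such as ATF6 and XBP1. At 1.2-fold, 11 of the 25 were lower and 3 higher, where 22% and 21.7% of all measured genes were. Besides ATF4, DDIT3 and DDIT4, the lower ones were KLHL24 (−0.70), FGF19 (−0.66), JDP2 (−0.56), CEBPB (−0.53), CREBRF (−0.40), ATF6 (−0.38), SESN2 (−0.27) and STC2 (−0.26). Some other known genes of this response were near level or higher. TRIB3 and CHAC1 each differed by −0.09, GDF15 by 0.04, PPP1R15A by 0.12 and ATF3 by 0.32. These 5, and those from KLHL24 to STC2 above, are named after their values were seen. The highest of the 25 was the RNA-activated kinase EIF2AK2, at 3664 on the CPEB4-labelled array and 1390 on the HCT116-GFP array (1.40), followed by XBP1 (0.56).

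Cytosolic aminoacyl-tRNA synthetases, which load amino acids onto tRNAs and several of which are also ATF4 targets, lay mostly above 0, many by little. Of 17 measured, 15 were above 0 and 2 below, where 49.9% of all measured genes lay below 0, and the median was 0.07. FARSA read 1264 on the CPEB4-labelled array and 889 on the HCT116-GFP array (0.51), and WARS1 read 1903 against 1405 (0.44). EPRS1 (−0.30, with kept probe sets up to 0.26) and CARS1 (−0.07, with kept probe sets down to −0.54) were the 2 below 0. No difference between this list and the members was tested.

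**Figure D4:**
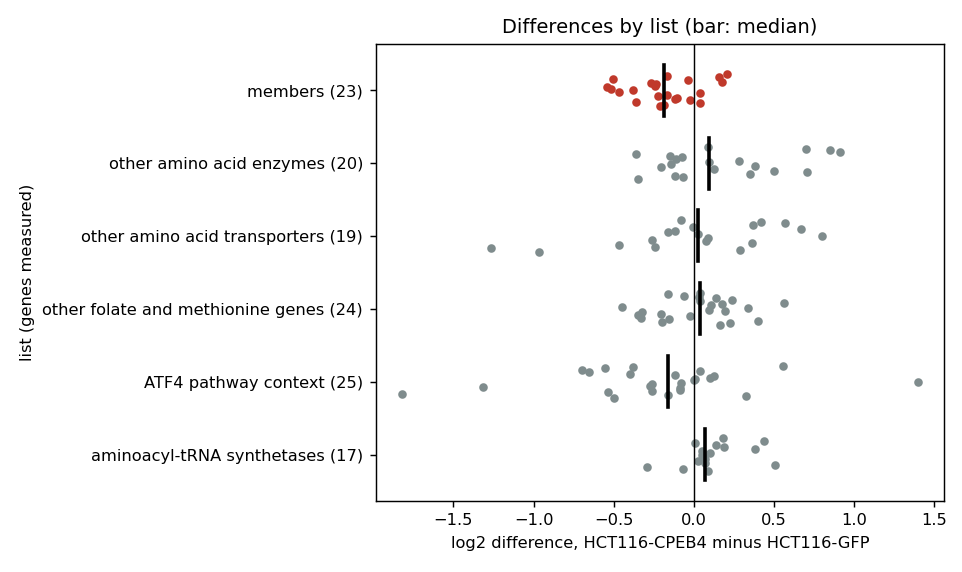
Log2 difference, HCT116-CPEB4 minus HCT116-GFP, of each measured gene by list, with the number of genes in parentheses and the median as a black bar. The medians are −0.19 for the members, −0.16 for the ATF4 pathway context list, and between 0.03 and 0.09 for the other lists.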

How the data were processed

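RNA from 2 HCT116 cultures was measured, 1 array per group. The authors' deposited table holds a linear intensity for each of 54675 probe sets. The submitters' processing notes list Partek, giving neither version nor role. How background, summarisation and scaling were handled is not stated in these sources. The mean without the lowest and highest 2% of values was 499.9 on both arrays.

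Probe sets were named by a platform table, updated by Entrez identifier to RefSeq GRCh38.p14 (41043 of 41097 single-gene probe sets matched). Probe sets with several genes (1801) or none (11777) and 62 controls were left out. A probe set was kept where the higher array reached 60.8, the 50th percentile, and each gene was represented by the kept probe set of highest mean log2 value. Levels of different probe sets are not comparable. Differences are log2 of HCT116-CPEB4 minus HCT116-GFP with no pseudocount, and folds are rules of size. The functions were tested on simulated data with planted changes far larger than any member difference, so that test says nothing about differences of this size. The number of arrays limits precision.

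All members were named, with the 2 highest and 2 lowest genes above the filter on both arrays of each wider list, plus ATF4, DDIT3 and CPEB4. Members and lists were chosen with earlier results of these data known. Alternatives changed the filter, the choice of probe sets, the scaling and the pseudocount (32). Python 3.11.15, pandas 2.3.3 and statsmodels 0.14.6 were used.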

Additional observations from a re-analysis of the deposited data

How the results depend on the processing

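Over 9 alternatives the median of the members stayed below 0, between −0.20 and −0.07, while the median over all genes stayed between −0.0041 and 0.0073. In all alternatives that could measure them, 15 members lay below 0, 4 above, and 4 changed sign. Signs changed only with another choice of probe sets, and the other alternatives had little room to change one. Removing x_at and s_at probe sets lost 9 members, 8 of them below 0, so that setting could not check them. The 10 members with 1 kept probe set could not change under the mean over kept probe sets. Without x_at and s_at probe sets the members' median was −0.065, with 9 below 0, 2 lower and 1 higher by 1.2-fold, and the medians were 0.038 for amide synthesis and transamination and 0.11 for transport. That setting also gave −0.093 for PSPH, 0.39 for GLUL and 0.053 for SLC7A1. With the mean over kept probe sets, 2 members (CTH and SLC7A1) were lower by 1.5-fold, 2 were higher by 1.2-fold, MTHFD1 was 0.36 and GLUL 0.070, and the medians were −0.035 for amide synthesis and transamination, 0.24 for other transporters and −0.019 for other folate and methionine genes. Without the filter, dim members entered: 1 was lower and 2 higher by 1.5-fold, 1 higher by 2-fold and 4 by 1.2-fold, and the folate cycle median was −0.018. With the 75th percentile filter the medians were −0.074 for other amino acid enzymes and −0.26 for the ATF4 pathway context list. The mean for MTHFD1 takes in the probe set at 89.3 against 53.1, and that for SLC7A1 the one at 24.8 against 73.5. Without x_at and s_at probe sets, GLUL rests on a probe set at 64.3 against 48.9. Why these probe sets differ, and the causes of the other changes, were not tested. No paired analysis was possible because each group has 1 array. Dim members cannot be given a direction.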
